A study of Rattus norvegicus with 3 samples.

Results

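The genes of retinoid and carotene handling described here are Rbp2, Lrat, Rdh7 and Bco1, chosen by their gene symbol in the platform annotation of the array from earlier results on these same samples. They are 4 of the 4379 named genes on the deposited table, and each is read by 1 probe. The study used microarrays on the jejunum of Sprague-Dawley rats, all male and 6 weeks old, with no treatment named in the labels. Transverse cryostat sections, 10 µm thick, were gathered 10 to a fraction, and 7 fractions spanned the height from villus tip to crypt. The top villus sample was fraction 1 (0 to 100 µm from the villus top), the middle villus sample fraction 4 (300 to 400 µm) and the crypt sample fraction 6 (500 to 600 µm), with 1 sample for each part. The number of animals per sample is not given in the labels. A fraction holds every cell type at that height, so fewer cells of a type and less RNA per cell cannot be told apart.

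Vitamin A enters the enterocyte either as retinol from the lumen or as β-carotene from plants. Bco1 cleaves β-carotene to retinal inside the cell, and Rbp2 (cellular retinol-binding protein II) carries retinol and retinal there. Lrat joins a fatty acid to carrier-bound retinol, and the retinyl ester leaves the cell in chylomicrons. Rdh7 belongs to the short-chain dehydrogenases that oxidise retinol to retinal, some of which also act on steroids. Retinoic acid, made from retinal, acts through nuclear receptors that bind DNA as dimers with the retinoid X receptors, at repeats of a short half-site.

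The promoters of the 4 genes are shown because several genes of vitamin A handling are known to be controlled by such receptors and because the genes followed different courses along the column. Each window runs from 250 bases before to 50 bases after an annotated start, on the gene's own strand, from RefSeq on the GRCr8 build, where all 4 genes matched. Rbp2 is at chr8:107963292-107963591 on the plus strand, Lrat at chr2:170571163-170571462 on the minus strand, Rdh7 at chr7:65574569-65574868 on the minus strand and Bco1 at chr19:62057890-62058189 on the plus strand. For Rbp2 the window belongs to a start inside the annotated gene, which has several transcripts. Capitals mark AGGTCA, the nuclear receptor half-site, and AAAGGTC, a string that extends it by 2 bases at its start and drops its last, each read on both strands (TGACCT and GACCTTT on the other). The strings overlap where they meet as TGACCTTT.
Rbp2: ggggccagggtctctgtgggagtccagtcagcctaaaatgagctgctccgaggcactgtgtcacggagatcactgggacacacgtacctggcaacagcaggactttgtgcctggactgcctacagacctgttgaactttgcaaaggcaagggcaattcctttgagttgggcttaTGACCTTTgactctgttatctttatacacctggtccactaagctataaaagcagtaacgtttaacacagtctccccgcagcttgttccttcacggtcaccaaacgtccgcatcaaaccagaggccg
Lrat: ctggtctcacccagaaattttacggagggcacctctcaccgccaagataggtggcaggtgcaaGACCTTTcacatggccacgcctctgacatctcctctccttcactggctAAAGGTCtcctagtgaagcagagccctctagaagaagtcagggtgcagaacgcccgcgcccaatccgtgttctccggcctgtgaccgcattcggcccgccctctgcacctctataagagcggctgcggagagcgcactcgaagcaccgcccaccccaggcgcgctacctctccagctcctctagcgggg
Rdh7: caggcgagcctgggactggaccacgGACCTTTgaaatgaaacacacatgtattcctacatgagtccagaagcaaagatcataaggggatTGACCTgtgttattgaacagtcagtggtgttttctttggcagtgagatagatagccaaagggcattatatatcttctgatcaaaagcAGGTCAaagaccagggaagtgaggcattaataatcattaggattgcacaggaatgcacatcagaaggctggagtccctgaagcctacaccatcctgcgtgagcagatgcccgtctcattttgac
Bco1: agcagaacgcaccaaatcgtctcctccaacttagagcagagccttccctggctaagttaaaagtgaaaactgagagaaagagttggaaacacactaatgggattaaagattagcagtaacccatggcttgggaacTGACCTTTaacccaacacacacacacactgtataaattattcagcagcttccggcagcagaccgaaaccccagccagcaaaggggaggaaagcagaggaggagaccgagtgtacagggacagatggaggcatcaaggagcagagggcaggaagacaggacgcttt

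AGGTCA was present in the windows of Rbp2, Rdh7 and Bco1 and not in that of Lrat, and a relation to the courses of the genes was not tested. It began 76 bases before the start in Rbp2 and 115 in Bco1, and lay in Rdh7 at 161 bases on one strand and 74 on the other. Of 33469 rat windows of the same length, 16.2% held it. AAAGGTC was found in all 4 windows, at 2 places in Lrat, and in 3.76% of the 33469. That longer string was picked after the 4 windows had been read, so its presence in them is a description of how it was picked. AGGTCANAGGTCA, a direct repeat with 1 base between half-sites, was in none of the 4 and in 0.0538% of all windows. Only exact copies were sought, so repeats with a mismatch were not counted. AGATAA, the GATA factor motif, was in Rbp2 only, 61 bases before the start, and in 11.6% of all windows. A match describes letters and is not a site.

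The deposited values are on a log2 scale, and the median probe lay at 7.81 in the crypt column, 7.83 in that of the middle villus and 7.57 at the top. A value below the lower quartile of its column was treated as dim. That level was 6.05 for the crypt, 4.15 for the middle and 5.15 for the top. All 4 genes lay above it in all 3 parts, so none of their differences is a bound. A difference of at least 2-fold, a log2 difference of 1, was counted as higher or lower. No p-value is possible with 1 sample per part, and 3 arrays set the precision. An error scale was available only from genes with several probes, whose log2 differences had a pooled within-gene SD of 0.90 for middle villus against crypt (222 genes), 0.91 for top villus against crypt (206 genes) and 1.05 for top against middle villus (247 genes). It leaves out the spread between animals. The 3 comparisons share their samples, and the genes were chosen on them, so the values below are a description.

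Rbp2, the retinol carrier, had log2 values of 11.90 in crypt, 14.19 in the middle villus and 12.88 at the top. The middle villus was the high sample, and the top lay between it and the crypt. The middle villus was higher than crypt by 2.29 (4.89-fold), outside 2 SDs of the probe spread. From middle to top the difference was -1.31 (2.48-fold lower), inside 2 SDs. On the linear scale, crypt reached 20.5% and top villus 40.3% of the middle villus level. Top villus against crypt differed by 0.98, just inside the 2-fold limit. That call depends on the scaling, at 1.22 under median scaling, 1.10 after scaling to a common 75th percentile and 0.54 under quantile normalization. Under quantile normalization the step from middle to top was -1.98.

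Bco1, the carotene-cleaving oxygenase, had log2 values of 7.93 in crypt, 10.90 in the middle villus and 8.43 at the top. It was high in the middle villus alone. The middle villus was higher than crypt by 2.97 (7.82-fold), and the top was lower than the middle, at -2.47 (5.53-fold), both outside 2 SDs. Crypt and top villus stood at 12.8% and 18.1% of the middle level. They differed from each other by 0.50, within the limit and within 1 SD of the probe spread. Rbp2 and Bco1 thus ran the same way along the column, with a steeper descent to the top in Bco1. That difference between their descents, like the genes' other differences, had no replicate to test it against.

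Rdh7, the retinol dehydrogenase, had log2 values of 8.04 in crypt, 12.27 in the middle villus and 14.43 at the top. Each part was higher than the part beneath it. The middle villus was higher than crypt by 4.22 (18.7-fold), and the top was higher than the middle by 2.17 (4.49-fold), both outside 2 SDs. Under quantile normalization the step from middle to top was 1.68. Between the ends of the column the difference was 6.39 (83.8-fold), so that crypt held 1.19% of the top villus level. Of 2735 genes measured in both end parts, 9 had a more positive difference. For middle villus against crypt 7 of 2899 did. Its top villus value, like those of the other 3 genes, lay below 16, the log2 ceiling of a 16-bit scanner. The normalization of the deposited values is not given, so this does not show whether the raw signals were saturated.

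Rdh7 lies on the rat genome beside Rdh16, Rdh9 and Sdr9c7, which are further short-chain dehydrogenases. None of these has a named probe on the table, and whether the Rdh7 probe also reads them was not tested.

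Lrat, the retinol-esterifying enzyme, had log2 values of 7.96 in crypt, 6.17 in the middle villus and 6.001 at the top. The crypt was the high sample, and the villus parts were close together. The middle villus was lower than crypt, at -1.79 (3.46-fold), just inside 2 SDs, and the top at -1.96 (3.88-fold), just outside. The villus parts differed by -0.16, which became 0.10 under median scaling. Their levels were 28.9% and 25.8% of that in crypt. In crypt Lrat lay 1.91 above the dim level, Bco1 1.88 and Rdh7 1.995, against 5.86 for Rbp2, so the crypt values behind the differences of Bco1 and Rdh7 were as near that level as that of Lrat. In the villus parts Lrat lay 2.02 (middle) and 0.85 (top) above it. Bco1 lay 6.75 and 3.29 above it there, Rdh7 8.12 and 9.29, and Rbp2 10.05 and 7.73.

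**Figure D1:**
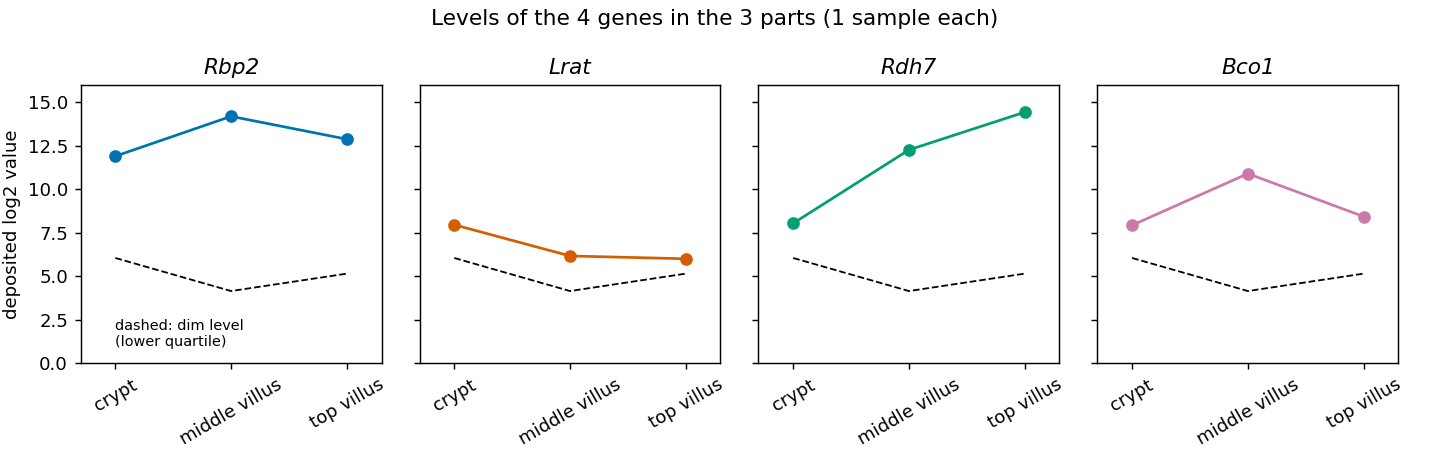
Deposited log2 values (vertical axis) of Rbp2, Lrat, Rdh7 and Bco1 in the 3 parts, crypt first (horizontal axis), 1 point per sample, with the dim level of each column dashed. Rbp2 and Bco1 are highest in the middle villus (14.19 and 10.90), Rdh7 at the top (14.43) and Lrat in the crypt (7.96).

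In order of their difference between middle villus and crypt the genes were Rdh7 (4.22), Bco1 (2.97), Rbp2 (2.29) and Lrat (-1.79). Bco1 and Rbp2 were closer to each other than the SD of 0.90, and Rdh7 and Bco1 lay further apart than it. That SD is for the difference of 1 gene, and a gap between genes has a wider spread. The order of Rdh7 and Bco1 is therefore not resolved either. Between top villus and crypt the order was Rdh7, Rbp2, Bco1 and Lrat, and Rbp2 (0.98) and Bco1 (0.50) again lay within 1 SD. Counted at 2-fold, 3 of the 4 genes were higher and 1 lower in middle villus than in crypt. Among all 3825 named genes compared 19.1% were higher and 29.5% lower, 48.5% in either direction. In top villus against crypt 1 gene was higher and 1 lower, against 23.9% and 39.5% of 3932 genes, 63.4% in all. From middle to top 1 gene was higher and 2 were lower, against 29.5% and 27.4% of 3768 genes, 56.9% in all. These counts come from the comparisons on which the genes were chosen, and nothing is read from them.

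**Figure D2:**
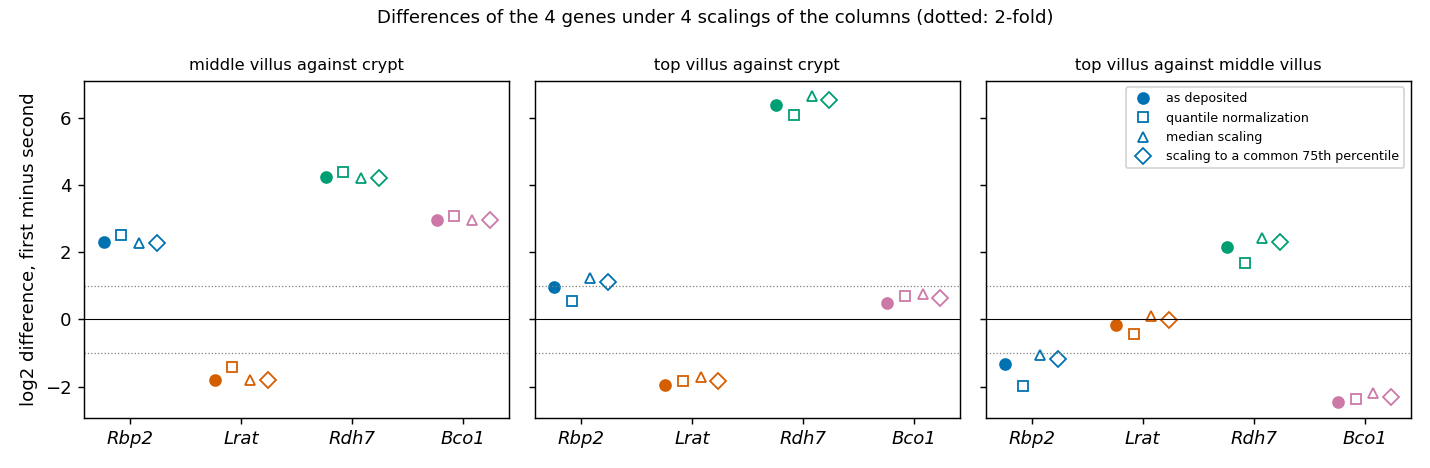
Log2 differences (vertical axis, first-named part minus second) of the 4 genes (horizontal axis) in the 3 comparisons, as deposited (filled) and under quantile normalization, median scaling and scaling to a common 75th percentile (open). The dotted lines mark 2-fold, which Rbp2 crosses in top villus against crypt, between 0.54 and 1.22, and the villus parts of Lrat change sign, between -0.43 and 0.10.

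The course along the column was also set against all genes, by the steps from crypt to middle and from middle to top. Of 3542 named genes compared in both steps, 270 (7.62%) were higher by 2-fold in the first and lower in the second, as Rbp2 and Bco1 were. A further 180 (5.08%) were higher in both, as Rdh7 was. There were 338 (9.54%) that were lower in the first and within the limit in the second, as Lrat was.

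The genes whose course was most like each of these were found by the Euclidean distance between the pairs of log2 steps, over the 3 samples, among 2696 genes measured in all 3 parts. Nearest to Rbp2 were Nckap1, a subunit of the actin-regulating WAVE complex, at 0.13, Gda, the guanine deaminase, also at 0.13, and Adap2 at 0.14. Nearest to Bco1 were Ahcyl2 at 0.31, Plvap, a protein of endothelial fenestrae, at 0.31, and Anpep, the brush border aminopeptidase N, at 0.43. Rbp2 was 47th among the neighbours of Bco1, at 1.34, and Bco1 171st among those of Rbp2. The genes nearest to Rdh7 lay further off, with the water channel Aqp3 at 0.43, the leucine aminopeptidase Lap3 at 0.72 and Errfi1, a feedback inhibitor of the EGF receptor, at 0.73. Nearest to Lrat were Wars1, a tryptophanyl-tRNA synthetase, and the tyrosine phosphatase Ptpn2, at 0.16 each, and the Mediator subunit Med27 at 0.20. None of the 4 genes was among the 3 nearest of another. The distances of the nearest genes were all smaller than the probe SDs of the steps, 0.90 and 1.05. Which genes rank nearest is therefore not resolved by these samples.

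**Figure D3:**
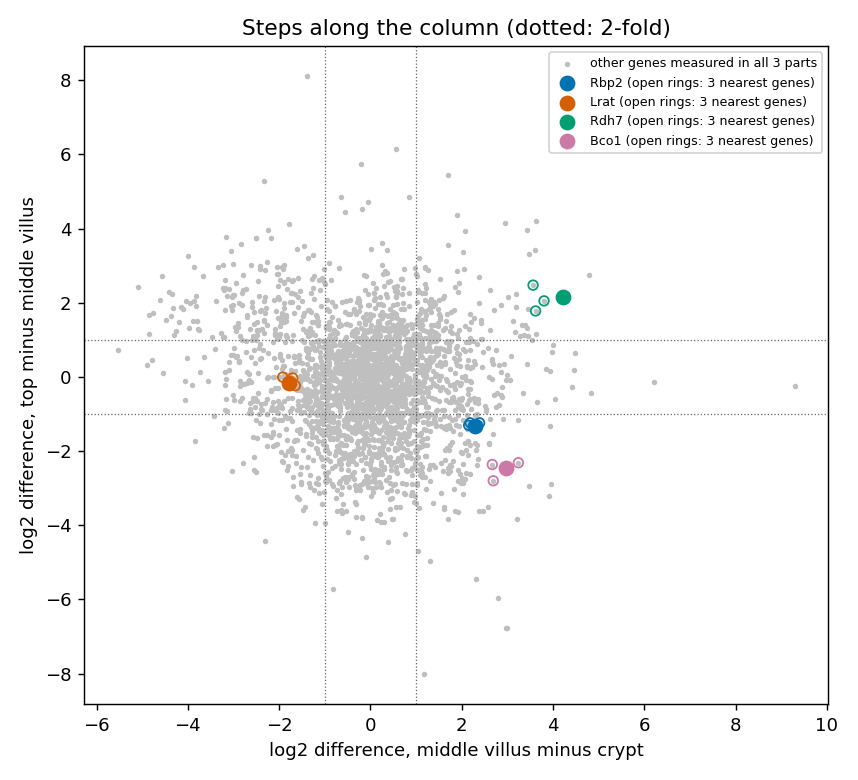
Log2 step from crypt to middle villus (horizontal axis) against the step from middle to top villus (vertical axis) for 2696 genes measured in all 3 parts (grey), with the 4 genes (filled, coloured) and the 3 genes nearest to each (open rings). Rbp2 and Bco1 lie at lower right (2.29 and 2.97 on the horizontal axis), Rdh7 at upper right (4.22) and Lrat at left (-1.79).

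Markers of several cell types differed along the same samples. Of 11 enterocyte markers on the table, 10 of 11 compared were higher in middle villus than in crypt and none lower (median 3.38), and 8 of 10 were higher and 1 lower at the top (median 4.35). Their summed linear level was 8113 in crypt, 171154 in the middle villus and 195315 at the top. From middle to top 4 of these 11 were higher, 3 lower and 4 within the limit, the lower ones being Anpep, Si and Slc5a1. All 5 markers of dividing cells were lower than in crypt in both villus parts, and their summed level was 6785 in crypt, 239 in the middle villus and 184 at the top. The enterocyte markers Lct and Slc5a1 were dim in crypt, and Si and Slc5a1 at the top, where Rbp2 and Bco1 were lower than in the middle. Of the dividing cell markers Mki67 and Cdk1 were dim in both villus parts, Mcm6 in the middle and Pcna at the top. No marker was listed at 0. Stellate cells, relatives of fibroblasts, store retinyl esters in the liver. Of 3 fibroblast and stellate cell markers compared between top and crypt, Dcn was lower and none was higher, with summed levels of 2221, 1444 and 1552 from crypt to top. The summed level of 3 plasma cell markers was 5919 in crypt, 12977 in the middle and 50.3 at the top, and followed Jchain. In the middle against crypt Jchain was higher (1.18), Derl3 was within the limit (0.43) and Tnfrsf17 was at least 9.27-fold lower. All 3 were lower at the top than in crypt, with Derl3 and Tnfrsf17 dim at the top and Tnfrsf17 also in the middle. Of 6 entries on the macrophage and dendritic cell list, 2 had a named probe, RT1-Ba and RT1-Da. Both were higher than crypt in both villus parts, with sums of 1978, 11822 and 28405. With 2 of 6 entries read, these sums do not show whether such cells were more numerous. RT1-Ba was higher at the top than in the middle (1.60), and RT1-Da was within the limit (-0.59). The sums of the 2 mast cell markers were 2894, 2256 and 476, and both were lower at the top than in crypt, with Cpa3 dim at the top. The sums of Paneth cell markers were 9372, 3048 and 4168, with Pla2g2a dim in both villus parts and Lyz2 within the limit at the top against crypt (-0.90). Sums from crypt to top were 17120, 16881 and 16473 for goblet cells, 5982, 5385 and 12113 for enteroendocrine cells and 2874, 2558 and 3721 for T and NK cells. They were 4378, 5153 and 5341 for smooth muscle and 1491, 1435 and 2525 for endothelium. Some sums join markers that ran apart. At the top against crypt, Clca1 was at least 57.4-fold lower, with the goblet markers Tff3 and Zg16 within the limit. Cd3g was 10.9-fold lower there, and Gzma (27.2-fold) and Gzmb (at least 19.2-fold) were higher. The part of cell composition in the courses of the 4 genes was not tested.

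The wider list of retinoid and carotene genes held 98 entries, of which 31 had a named probe here. In middle villus against crypt 14 of 30 compared were higher and 4 lower, with a median log2 difference of 0.89 beside -0.08 for all genes, of which 19.1% were higher and 29.5% lower. The list's median was 1.45 under quantile normalization, 1.56 with no detection filter and 1.74 for probes measured in all 3 parts. Without the 4 genes above, 11 of 26 were higher, 3 were lower and the median was 0.77. In top villus against crypt 14 of 28 were higher and 7 lower, against 23.9% and 39.5% of all genes. The list's median there was 1.10 (1.89 under quantile normalization), against -0.39 for all genes. Without the 4 genes 13 of 24 were higher, 6 were lower and the median was 1.36. The groups of the list ran apart in this comparison. Medians were -0.23 for carriers, -1.96 for ester synthesis and hydrolysis, -0.97 for oxidoreductases and -0.32 for receptors and cofactors. They were 1.63 for carotene uptake and cleavage, 5.46 for chylomicron export and 1.21 for retinoic acid target genes. Apoa1 and Apoa4 of the export group are also enterocyte markers here. From middle to top 9 of 30 were higher and 8 lower, near the shares of 29.5% and 27.4% among all genes. The median was -0.18, against 0 for all genes, and 0.04 under median scaling. Values given as "at least" below involve a dim part.

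Among the carriers, Rbp7, a retinol-binding relative of Rbp2, had values of 7.33 in crypt, 9.82 in the middle villus and -1.08 at the top. It was higher in the middle than in crypt by 2.49 and at least 25.4-fold lower at the top than in the middle. Its high sample was therefore the one in which Rbp2 and Bco1 were high. Rbp4, the plasma retinol carrier, had values of 6.12, 3.40 and 7.10 and was dim in the middle villus, at least 3.92-fold lower than in crypt. Fabp5, which can carry retinoic acid to the receptor Ppard, was lower than in crypt in the middle (-1.22) and at the top (-1.45).

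The esterifying enzymes ran apart. Dgat1, a triglyceride-making enzyme that can also esterify retinol, had values of 10.45 in crypt, 14.87 in the middle villus and 14.59 at the top. It was higher than crypt by 4.42 and 4.14 in the villus parts, where Lrat was lower by 3.46-fold and 3.88-fold. Lpl, a lipase that acts on chylomicrons, was close to its crypt level in the middle (-0.12) and lower at the top (-2.30).

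Other dehydrogenases of the list did not follow Rdh7. Dhrs3, which reduces retinal back to retinol, had values of 9.98 in crypt, 9.16 in the middle villus and 8.02 at the top. The middle was within the limit against crypt (-0.82), and the top was lower than the middle (-1.14). The top differed from crypt by -1.96, against 6.39 for Rdh7. Dhrs7 was within the limit in the middle (0.99) and at the top (-0.97) against crypt, and Rdh14 was dim in crypt and top villus. Cyp26b1, which clears retinoic acid, was dim in all 3 parts and was not compared.

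The uptake and export genes were higher than crypt in both villus parts, except Bco1 at the top. All 4 uptake and cleavage genes compared were higher in middle villus than in crypt, against 19.1% of all genes. Bco1 is among them and was chosen from earlier results on these same samples, so nothing is read from this count. Scarb1, the scavenger receptor that takes up carotenoids, had values of 7.62 in crypt, 10.14 in the middle villus and 9.36 at the top. It differed from crypt by 2.52 and 1.74. Cd36, a lipid scavenger receptor, differed by 1.56 and 1.85, and Abcg5, a subunit of a sterol exporter, by 1.74 and 1.51. From middle to top Bco1 was the 1 gene of the 4 that was lower by 2-fold, and the other 3 were within the limit. Of the chylomicron genes all 4 were higher in both villus parts, against 19.1% of all genes in the middle and 23.9% at the top. Mttp, which loads lipid onto apolipoprotein B, differed from crypt by 1.95 and 2.24 and Apobec1, which edits its mRNA, by 1.76 and 3.51. Apoa1 and Apoa4 differed from crypt by 9.04 and 7.40 at the top.

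Among the receptors Rara, a retinoic acid receptor, was dim in crypt (4.30) and had values of 7.52 in middle villus and 8.61 in top villus. It was at least 2.78-fold and 5.90-fold higher in these than in crypt. Vdr, the vitamin D receptor and like Rara a partner of the retinoid X receptors, was at least 1.74-fold and 5.95-fold higher. Nr1h4, the bile acid receptor, was within the limit in the middle (0.69) and at least 5.75-fold lower at the top, and the coactivator Ncoa1 ran likewise, at 0.74 and -2.39. Nr1h3, an oxysterol receptor, was within the limit in each comparison. The corepressor Ncor1 was dim in crypt and top villus.

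Of 5 genes that retinoic acid is known to induce in some cells, 3 were higher at the top than in crypt and none lower, against 23.9% and 39.5% of all genes. All 3 were dim in crypt, so their differences are bounds. They were compared only because they were not dim at the top, and could not have come out lower. Rarres2 (-0.29) and Tgm2 (0.74), measured in both parts, were within the limit, and nothing is read from the count. Rarres1 was at least 2.32-fold, Cdkn1a at least 6.79-fold and Egr1 at least 23.3-fold higher, and each of these answers to other signals too. Tgm2, a transglutaminase, had values of 8.34 in crypt, 2.12 in the middle villus and 9.08 at the top, so that it was dim in the part in which Rbp2 and Bco1 were high. Rarres2 was within the limit in each comparison.

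**Figure D4:**
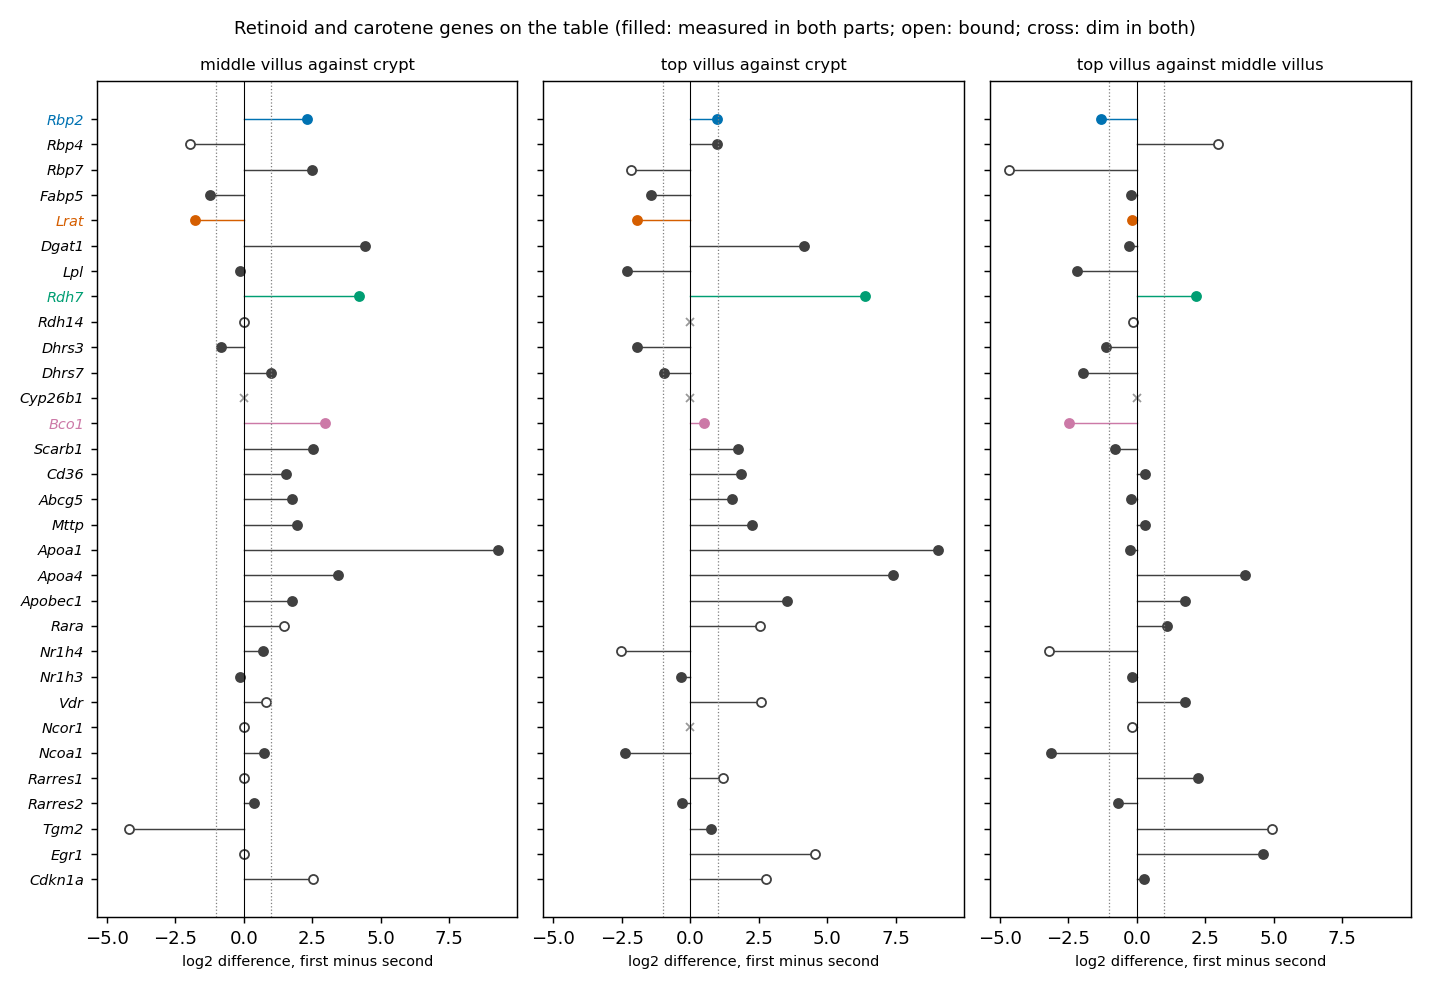
Log2 differences (horizontal axis, first-named part minus second) of the 31 retinoid and carotene genes on the table (vertical axis) in the 3 comparisons, with the 4 genes in colour, bounds as open points and genes dim in both parts as crosses. The dotted lines mark 2-fold. In middle villus against crypt 14 genes lie beyond the line on the higher side and 4 on the lower.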

How the data were processed

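RNA of the 3 jejunal fractions was purified on columns and amplified linearly during labelling, per the labels' protocols, with Cy3 and Cy5 both named as labels. The authors deposited 1 column of log2 values per sample for 6653 probes (the scale was read from the values). Their normalization, channel and genome build are not given in the sources used here. For the comparisons the 3 scanner tables carry neither probe nor sample names and were not used here. Of the probes, 4820 have 1 gene symbol, 0 several and 1833 none. RefSeq (GRCr8) held the Entrez identifier of 4806 and changed 0 symbols. Of the top villus values 13 are blank and were left out.

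Columns were not rescaled. A probe below the lowest 25% of its column was dim, was set to that level, and was compared if the other part was not dim. Such differences are bounds and may not pass 0. Probes of 1 gene were averaged. Genes were called at 2-fold, with no test. The steps were tested on simulated data. The 4 genes, the gene lists and the rules were chosen with earlier results of these data known. The genes named are these 4, the members of the retinoid and carotene list, the cell type markers, and for each of the 4 the 3 genes nearest in course. Alternatives were median scaling, quantile normalization, the brightest probe per gene, a linear floor of 32, no filter on dim probes, probes measured in every part, and limits of 1.5-fold and 4-fold. A common 75th percentile was tried after seeing the data. Software was Python 3.11.15, numpy 2.4.6 and pandas 2.3.3.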

Additional observations from a re-analysis of the deposited data

How the results depend on the processing

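No paired analysis was possible because each part had 1 sample, and the alternative that would start from the scanner tables was not run because they name neither probes nor samples. Of 201 values recomputed, 189 stayed within the probe SD or, for counts, within 1.5 times, 12 moved further and 0 called values changed sign. No difference of Rbp2, Lrat, Rdh7 or Bco1 moved by as much as the probe SD. Only rescaling or quantile normalization could move them, since each gene has 1 probe and is dim in no part. The other settings return the deposited differences of these genes by construction, and those values are among the 189. The widest shift was in Rbp2 from middle to top villus, from -1.31 to -1.98 under quantile normalization. Rbp2 in top villus against crypt passed 2-fold in 2 of 7 settings, both of them rescalings. Quantile normalization gave 0.54, and the remaining settings could not change the value. Lrat from middle to top, which was not called, changed sign under median scaling, at 0.10. With probes measured in all 3 parts, named genes lower than in crypt numbered 920 at the top and 581 in the middle, and 555 were higher at the top than in the middle. On the retinoid and carotene list this left 9 genes higher at the top than in crypt, 2 lower in the middle than in crypt and 3 higher at the top than in the middle, since fewer genes are compared. At 4-fold, which calls fewer genes by construction, the counts higher and lower were 477 and 866 for top villus against crypt, 234 and 714 for middle villus against crypt and 519 and 515 for top against middle villus. Of all calls in middle villus against crypt 39.3% were higher, and 49.9% under quantile normalization. Median scaling moved the median of all genes from -0.39 to -0.15 for top villus against crypt and from 0 to 0.24 for top against middle villus. Depth does not apply to arrays, and closeness to the dim level limits Lrat, Bco1 and Rdh7 in crypt and Lrat in the villus parts.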
